A study of Mus musculus with 6 samples.

Results

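Ribosome biogenesis factors of the nucleolus were followed in the mouse macrophage-like line J774A.1 after exposure to neuropeptide FF (NPFF). The set holds 58 genes that were chosen by name because several Nop genes had been higher after NPFF in these same arrays. The NPFF minus control contrast was therefore used in the choice, and the values of the set in that contrast are given as a description, without a test. Of the 58 genes, 55 had a feature of the array paired with their symbol alone, among 22180 genes measured in that way. Fbl, Tsr1 and Rrp8 had only features that also name a second gene and are described separately.

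Cells of BALB/c origin were grown in RPMI-1640 with 10% fetal calf serum. The NPFF group received the peptide at 1 nM in phosphate-buffered saline for 18 h, and the control group received the saline alone for the same 18 h. Each group comprised 3 samples, labelled as biological replicates, each hybridised to 1 Affymetrix whole-transcript array. The control titles call the cells non-treated, while the treatment labels give the vehicle. NPFF is an amidated neuropeptide with G-protein-coupled receptors, and the comparison asks which transcripts differed in macrophages exposed to it. The model is 1 immortalised cell line, with 1 dose and 1 time.

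Ribosomes are built in the nucleolus, where RNA polymerase I transcribes a long precursor of the ribosomal RNAs (pre-rRNA). Small nucleolar ribonucleoproteins (snoRNPs) modify that precursor, those of the box C/D class by ribose methylation and those of the box H/ACA class by converting uridine to pseudouridine. Large assemblies of processing factors then fold and cleave it into the precursors of the small and the large ribosomal subunit. Transcripts of these factors are usually abundant in growing cells, and macrophage lines in culture divide continuously.

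Among the 10 members whose 3 NPFF arrays all lay above all 3 control arrays, 7 had a promoter with a single listed start in the RefSeq table used, and these promoters are shown together with that of Nop2, whose promoter holds all 3 motifs searched. The motifs were CACGTG (the E-box bound by Myc and related factors), CCGGAAG (an ETS-family site) and GGGCGG (a GC box), on either strand, and matches of different motifs were counted even where they overlapped. Each sequence is the 160 bases before the RefSeq start in GRCm38.p6, read 5′ to 3′ in the direction of transcription, with matches to a motif or its reverse complement in capitals. The windows of Nop56 (chr2:130274252-130274411, + strand), Nop58 (chr1:59684846-59685005, + strand), Gar1 (chr3:129831397-129831556, - strand), Nop10 (chr2:112261766-112261925, + strand) are followed by those of Dkc1 (chrX:75095694-75095853, + strand), Polr1b (chr2:129100836-129100995, + strand), Brix1 (chr15:10485938-10486097, - strand), Nop2 (chr6:125131723-125131882, + strand).
Nop56: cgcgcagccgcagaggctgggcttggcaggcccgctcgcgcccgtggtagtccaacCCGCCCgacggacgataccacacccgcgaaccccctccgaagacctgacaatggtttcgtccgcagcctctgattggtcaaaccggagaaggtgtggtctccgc
Nop58: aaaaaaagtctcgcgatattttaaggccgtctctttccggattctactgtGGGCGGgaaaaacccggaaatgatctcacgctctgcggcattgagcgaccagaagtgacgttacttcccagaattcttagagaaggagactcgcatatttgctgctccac
Gar1: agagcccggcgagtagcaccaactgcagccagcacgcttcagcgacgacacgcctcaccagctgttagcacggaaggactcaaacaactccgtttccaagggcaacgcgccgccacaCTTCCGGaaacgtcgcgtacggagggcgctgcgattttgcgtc
Nop10: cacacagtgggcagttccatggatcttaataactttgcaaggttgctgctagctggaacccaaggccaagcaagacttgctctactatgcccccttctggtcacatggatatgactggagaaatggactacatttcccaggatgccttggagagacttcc
Dkc1: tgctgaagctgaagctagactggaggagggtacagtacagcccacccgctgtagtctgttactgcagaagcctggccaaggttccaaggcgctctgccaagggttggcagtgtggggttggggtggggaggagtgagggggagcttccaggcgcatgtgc
Polr1b: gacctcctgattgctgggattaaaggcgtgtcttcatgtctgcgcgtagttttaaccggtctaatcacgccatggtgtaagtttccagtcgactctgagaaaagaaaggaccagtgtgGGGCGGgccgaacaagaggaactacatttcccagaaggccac
Brix1: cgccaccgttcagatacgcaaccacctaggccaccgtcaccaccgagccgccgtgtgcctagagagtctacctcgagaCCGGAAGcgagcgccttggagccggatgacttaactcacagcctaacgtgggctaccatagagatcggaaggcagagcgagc
Nop2: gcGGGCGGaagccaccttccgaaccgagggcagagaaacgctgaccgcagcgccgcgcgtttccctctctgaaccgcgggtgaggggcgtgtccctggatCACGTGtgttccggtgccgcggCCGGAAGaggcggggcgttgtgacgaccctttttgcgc

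Counted from the start, Gar1 had CCGGAAG at -43 on the opposite strand and Brix1 had it at -82. Nop56 had GGGCGG at -104 on the opposite strand, while Nop58 and Polr1b had it at -110 and -42. The windows of Nop10 and Dkc1 held none of the 3 motifs. Nop2 had GGGCGG at -158, CACGTG at -60 and CCGGAAG at -38. Over the 300 bases from 250 before to 50 after the start, 49 of the 58 members had a promoter in the table. CCGGAAG was present in 21 of these 49 genes (42.9%), against 12.7% of 16990 genes on the array with a promoter and 9.93% of all 27025 genes in the table. GGGCGG was present in 37 (75.5%), against 49.5% of the genes on the array and 38.2% of all genes in the table. CACGTG was present in 9 (18.4%), against 9.19% and 8.09%. The shares among 66 other ribosome biogenesis genes were 42.4% for CCGGAAG, 63.6% for GGGCGG and 24.2% for CACGTG, and among 58 cytosolic ribosomal protein genes they were 41.4%, 62.1% and 10.3%. Members with all 3 motifs were Nop2, Rrn3, Utp18 and Tsr1. Of the 8 promoter-matched members with every NPFF array above every control array, 0 held CACGTG, 2 held CCGGAAG and 4 held GGGCGG.

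All values below are log2 intensities after quantile normalization, which gives the 6 arrays the same distribution, and a difference is the NPFF mean minus the control mean. In a bulk sample, fewer cells expressing a gene and less RNA per cell cannot be told apart. Across all 22180 genes, limma's moderated test was fitted to the 2 groups and adjusted by the Benjamini-Hochberg method. By that test 0% of the genes passed an adjusted p of 0.05, and adjusted values began at 0.789. The same limma fit counted 556 of the 22180 genes with an unadjusted p under 0.05. That is a smaller share than the 0.05 that would pass if no gene differed. Hence 0 of the 55 members passed the adjusted threshold.

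The arrays were not equally alike, which bears on every value of the set. Over all genes, the SD from the mean of the other 5 arrays was 0.11, 0.13 and 0.11 for the NPFF arrays and 0.37, 0.21 and 0.12 for controls 1, 2 and 3. Control 1 thus stood farthest from the rest, and what set it apart was not tested. The macrophage label fitted its markers: 10 of 10 genes, such as Lyz2, Cd68 and Csf1r, were measured, with levels of 7.02 to 13.28 and a median signal at the 96.5th percentile of all genes. Markers of fibroblasts, epithelial cells, endothelial cells, T cells, B cells and neutrophils lay between 5.25 and 7.29, with list medians at the 19.5th to 40.7th percentile. The macrophage list had a median difference of 0.02, with 5 of 10 genes higher in NPFF cells, and without control 1 a median of -0.02, with 4 of 10 higher.

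The nucleolar factors were, as a set, slightly higher in NPFF cells. Of the 55 members, 45 had a positive difference, against 51.7% of all genes, and 10 had a negative one. Their median difference was 0.12 on the log2 scale, against 0.00 over all genes, and single differences ran between -0.24 for Noc3l and 0.48 for Gar1. The mean level of the 55 genes was 9.25, 9.31 and 9.21 in the 3 NPFF arrays and 8.94, 9.18 and 9.23 in controls 1, 2 and 3. The groups overlapped in that mean, since control 3 lay above NPFF 3. Without control 1 the median difference was 0.06, with 41 of 55 members higher. Over all genes it was -0.02, with 8670 of 22180 higher.

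In 10 members (18.2%) every NPFF array lay above every control array, against 3.67% of all genes. These were Nop56, Nop58, Gar1, Nop10, Dkc1, Ubtf, Polr1b, Rrp12, Rrs1 and Brix1. In the related lists described below, the same held for 5 of 31 other small subunit factors (16.1%) and 4 of 31 other large subunit factors (12.9%). It held for 5 of 59 cytosolic ribosomal proteins, 0 of 7 other RNA polymerase I genes and 0 of 10 other snoRNP factors. In 3 members, Naf1, Wdr36 and Noc3l, every NPFF array lay below every control array, against 4.92% of all genes. The margins were narrow in several of the 10. The margin was narrowest for Rrp12, with NPFF 1 at 7.8349 and control 3 at 7.8343. The nearest arrays of the groups stood at 10.34 and 10.32 for Nop10, at 8.40 and 8.38 for Polr1b and at 7.82 and 7.80 for Rrs1. On the values as deposited, without quantile normalization, the count of 10 was 4, against 2.57% of all genes, and with arrays centred on their medians it was 2, against 1.65% of all genes. Without control 1 it was 12, against 8.97% of all genes.

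**Figure D1:**
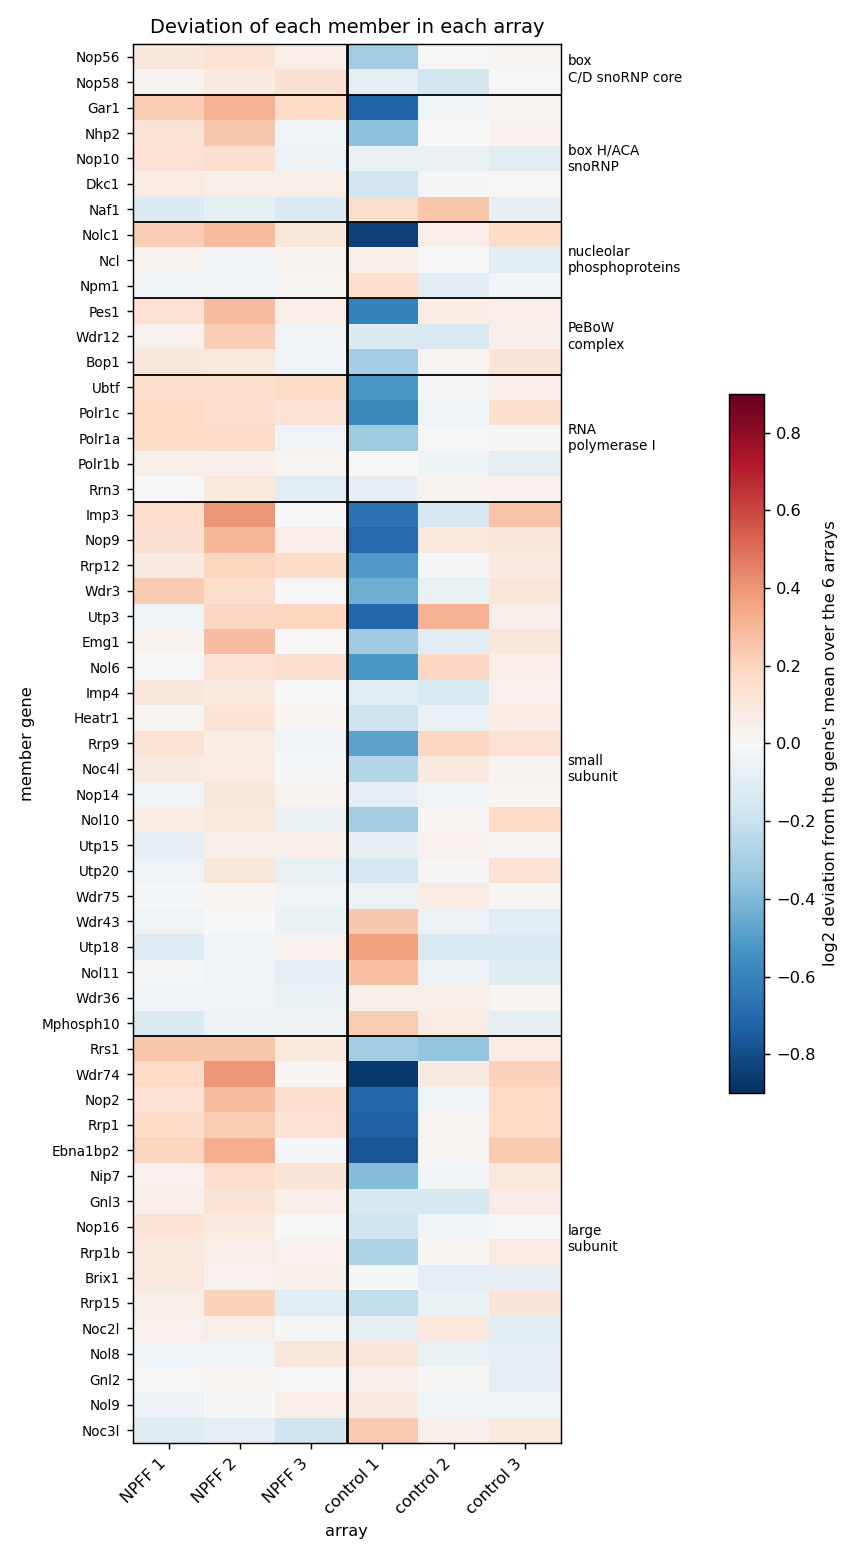
Log2 deviation of each of the 55 measured members (vertical axis, grouped by role and ordered by difference) from its own mean over the 6 arrays, with the 3 NPFF arrays left of the 3 control arrays. The control 1 column is the bluest, with a median deviation of -0.19, while the other 5 arrays have medians between -0.01 and 0.10, and in the lower rows of the small and large subunit groups, such as Utp18 and Noc3l, control 1 is the highest array.

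The box C/D core proteins Nop56 and Nop58, which like the methyltransferase Fbl are part of the particle around each guide RNA, were both higher in NPFF cells without overlap. Nop56 (feature 17376252) stood at 10.55, 10.57 and 10.51 in NPFF cells, against 10.14, 10.45 and 10.47 in control cells, a difference of 0.19 (SE 0.10). Its lowest value was control 1, and the difference was 0.08 without that array. Nop58 (feature 17213295) stood at 9.12, 9.17 and 9.22 in NPFF cells, against 9.01, 8.92 and 9.08 in control cells, a difference of 0.17 (SE 0.07). For Nop58 control 2 was the lowest array, and the difference was again 0.17 without control 1.

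Fbl was read only by a feature that also names Tulp4, so its signal cannot be given to 1 gene. That feature stood at 8.65, 8.63 and 8.51 in NPFF cells, against 6.75, 8.25 and 8.46 in control cells. Every NPFF array lay above every control array. The difference of 0.78 became 0.24 without control 1.

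Of the box H/ACA proteins, 4 of 5 were higher in NPFF cells and the assembly factor Naf1 was lower. Gar1 (feature 17410323), a core protein that completes the mature particle, had the highest difference of all members. It stood at 8.16, 8.25 and 8.11 in NPFF cells, against 7.21, 7.90 and 7.96 in control cells, a difference of 0.48 (SE 0.20), or 1.40-fold. The groups did not overlap, and the difference was 0.24 without control 1. Naf1 (feature 17501550) occupies the place of Gar1 in the immature particle. It stood at 7.67, 7.71 and 7.67 in NPFF cells, against 7.96, 8.05 and 7.72 in control cells, a difference of -0.22 (SE 0.09) that was -0.20 without control 1. The 3 NPFF arrays of Naf1 were nearly equal and lay just under control 3.

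Nhp2, which binds the guide RNA fold, stood at 9.20, 9.32 and 9.05 in NPFF cells, against 8.71, 9.08 and 9.12 in control cells, a difference of 0.22 (SE 0.13) that was 0.09 without control 1. Its groups overlapped, since NPFF 3 lay below controls 2 and 3. Nop10, a small scaffold protein, stood at 10.52, 10.54 and 10.34 in NPFF cells, against 10.32, 10.32 and 10.29 in control cells. This difference of 0.16 (SE 0.07) was alike against each control, at 0.15, 0.14 and 0.18. Dkc1, the pseudouridine synthase, had the smallest difference of the group, 0.12 (SE 0.07), with 10.27, 10.24 and 10.25 in NPFF cells and 10.02, 10.18 and 10.19 in control cells. Control 1 was again the lowest array of Dkc1, the groups did not overlap, and the difference was 0.07 without control 1.

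The nucleolar phosphoproteins differed little apart from Nolc1, a chaperone of snoRNPs. Nolc1 (feature 17359902) stood at 9.09, 9.15 and 8.97 in NPFF cells, against 8.02, 8.92 and 9.03 in control cells, a difference of 0.41 (SE 0.26) that was 0.09 without control 1. Its difference thus lay mostly in 1 array, and NPFF 3 lay below control 3. Nucleolin (Ncl) stood at 11.06, 11.00 and 11.06 in NPFF cells, against 11.08, 11.03 and 10.93 in control cells, a difference of 0.03 (SE 0.07). Nucleophosmin (Npm1), a histone and ribosome chaperone, stood at 12.42, 12.42 and 12.47 in NPFF cells, against 12.59, 12.35 and 12.42 in control cells, a difference of -0.02 (SE 0.08). In Ncl and Npm1, which had the brightest features of the group, control 1 was the highest array rather than the lowest, and without it the differences were 0.06 and 0.05.

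The PeBoW complex, named for Pes1, Bop1 and Wdr12, is needed for maturation of the large subunit's rRNA. All 3 genes had positive differences and none was without overlap. Pes1 stood at 9.42, 9.57 and 9.35 in NPFF cells, against 8.68, 9.36 and 9.35 in control cells, a difference of 0.32 (SE 0.19) that was 0.09 without control 1. Wdr12 stood at 8.34, 8.52 and 8.27 in NPFF cells, against 8.17, 8.16 and 8.34 in control cells, a difference of 0.15 (SE 0.09). Bop1 stood at 9.38, 9.38 and 9.25 in NPFF cells, against 8.97, 9.31 and 9.40 in control cells, and its difference of 0.11 (SE 0.12) was -0.02 without control 1.

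The 5 genes of RNA polymerase I transcription had a median difference of 0.20, the highest of the role groups. Without control 1 it was 0.09, below the 0.13 of the box C/D core. Ubtf, the HMG-box factor that binds ribosomal gene promoters and gene bodies, stood at 9.57, 9.56 and 9.58 in NPFF cells, against 8.89, 9.40 and 9.47 in control cells. Its difference was 0.31 (SE 0.15), or 1.24-fold, without overlap, and it was 0.13 without control 1. Polr1c, a subunit shared with RNA polymerase III, stood at 10.78, 10.76 and 10.73 in NPFF cells, against 10.02, 10.57 and 10.75 in control cells, a difference of 0.31 (SE 0.18) that was 0.09 without control 1 and 0.01 against control 3 alone. The NPFF arrays of both genes were close together while the controls spread, with an SD of 0.01 against 0.32 for Ubtf and 0.03 against 0.38 for Polr1c.

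Polr1a, the largest polymerase subunit, differed by 0.20 (SE 0.11), or 0.09 without control 1, with overlapping groups. Polr1b, the other catalytic subunit, stood at 8.43, 8.42 and 8.40 in NPFF cells, against 8.38, 8.33 and 8.30 in control cells, a difference of 0.08 (SE 0.06). Control 1 was the highest control of Polr1b, and the difference was 0.10 without it. Rrn3, which brings the polymerase to the promoter, differed by 0.00 (SE 0.08), at 9.16, 9.25 and 9.06 in NPFF cells and 9.08, 9.18 and 9.19 in control cells, and by -0.03 without control 1.

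Of the 21 measured small subunit factors, 15 were higher in NPFF cells and 6 were lower, with a median difference of 0.10. Without control 1 the median was 0.04 and 11 of 21 were higher. Imp3, which acts with Imp4 and Mphosph10 in an early processing complex, stood at 11.43, 11.67 and 11.28 in NPFF cells, against 10.61, 11.13 and 11.53 in control cells. Its difference of 0.37 (SE 0.23) was 0.85 against control 1, 0.33 against control 2 and -0.07 against control 3. Of its partners, Imp4 had a difference of 0.13 (SE 0.07) and Mphosph10 one of -0.14 (SE 0.09). Without control 1 the values were 0.13 for Imp3, 0.11 for Imp4 and -0.06 for Mphosph10, and differences between these genes were not tested. Mphosph10 stood at 7.75, 7.83 and 7.83 in NPFF cells, against 8.10, 7.94 and 7.79 in control cells, so its groups overlapped.

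Nop9, an RNA-binding protein of the small subunit precursor, stood at 7.87, 8.02 and 7.79 in NPFF cells, against 7.03, 7.82 and 7.84 in control cells, a difference of 0.33 (SE 0.22) that was 0.06 without control 1. Nop14, a scaffold for Emg1 and Noc4l, stood at 8.21, 8.33 and 8.26 in NPFF cells, against 8.14, 8.19 and 8.24 in control cells, a difference of 0.08 (SE 0.07), or 0.05 without control 1. Both genes overlapped between groups. Rrp12, an export factor of pre-ribosomes in yeast, was the small subunit member higher without overlap. It stood at 7.83, 7.95 and 7.92 in NPFF cells, against 7.25, 7.75 and 7.83 in control cells, a difference of 0.30 (SE 0.16) that was 0.11 without control 1. NPFF 1 and control 3 were nearly equal for Rrp12, at 7.8349 and 7.8343.

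Utp20 had the difference nearest 0 among the small subunit factors, 0.01 (SE 0.09), at 8.57, 8.70 and 8.53 in NPFF cells and 8.44, 8.60 and 8.73 in control cells, and it was -0.07 without control 1. Wdr36, a WD-repeat protein of the same processing assembly, was lower without overlap, at 9.22, 9.20 and 9.18 in NPFF cells and 9.29, 9.29 and 9.26 in control cells. The size of that difference, -0.08 (SE 0.06), was small, and it was the same without control 1.

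Of the 16 measured large subunit factors, 14 were higher in NPFF cells, with a median difference of 0.13 that was 0.06 without control 1. Rrs1, an assembly factor known from yeast, stood at 7.97, 7.98 and 7.82 in NPFF cells, against 7.41, 7.37 and 7.80 in control cells, a difference of 0.39 (SE 0.13), or 1.31-fold. Here controls 1 and 2 were both low, and the difference was 0.34 without control 1 and 0.13 against control 3 alone. Wdr74, a partner of a remodelling ATPase of early particles, stood at 8.77, 8.99 and 8.61 in NPFF cells, against 7.72, 8.67 and 8.80 in control cells. Its difference of 0.39 (SE 0.29) was 0.05 without control 1. The large subunit genes Rrp1 and Ebna1bp2 shared that pattern, with 0.90 and 0.94 against control 1 alone but -0.004 and -0.06 against control 3.

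Nop2, an rRNA cytosine methyltransferase, stood at 9.32, 9.46 and 9.33 in NPFF cells, against 8.48, 9.16 and 9.37 in control cells, a difference of 0.37 (SE 0.22). Its NPFF mean differed from control 3 by 0.00, and the group difference was 0.11 without control 1. Nop16, a large subunit factor known from yeast, stood at 9.81, 9.76 and 9.68 in NPFF cells, against 9.50, 9.66 and 9.69 in control cells, a difference of 0.13 (SE 0.08), or 0.08 without control 1, with NPFF 3 just under control 3. Brix1, an early large subunit factor, was higher without overlap, at 10.09, 10.04 and 10.05 in NPFF cells and 9.99, 9.92 and 9.93 in control cells. The difference of 0.11 (SE 0.06) was 0.14 without control 1, hence slightly larger.

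Noc3l had the lowest difference of all members and was lower without overlap, at 8.55, 8.59 and 8.49 in NPFF cells and 8.90, 8.71 and 8.75 in control cells, a difference of -0.24 (SE 0.07). It was -0.19 without control 1. Noc2l, its partner in yeast, differed by 0.05 (SE 0.07), or 0.02 without control 1. Nol9, an RNA kinase of pre-rRNA processing, differed by -0.01 (SE 0.07), at 8.76, 8.80 and 8.87 in NPFF cells and 8.90, 8.78 and 8.77 in control cells, and by 0.04 without control 1.

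**Figure D2:**
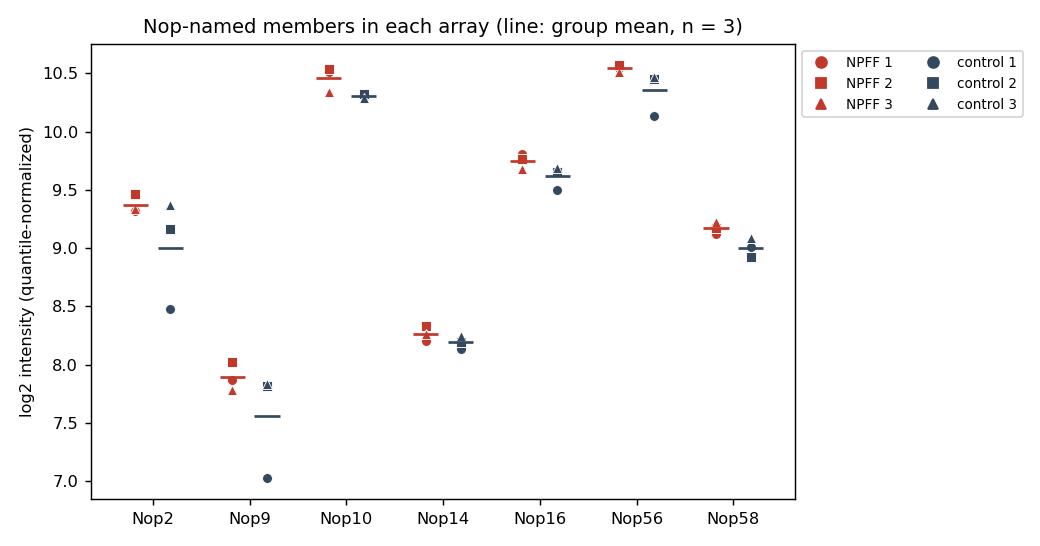
Quantile-normalized log2 intensity of the 7 Nop-named members in each array, NPFF left of control, with the group mean as a line (n = 3 each). All 7 means are higher in NPFF cells, by 0.08 to 0.37, and in Nop2, Nop9, Nop14, Nop16 and Nop56 the lowest point is control 1.

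All 7 Nop-named members had positive differences, and Nop10, Nop56 and Nop58 were without overlap between groups. The plot of the Nop genes by array shows 2 shapes, with Nop14 and Nop16 between them. In Nop2, Nop9 and Nop56 control 1 lay well under the other controls, and the differences of 0.37, 0.33 and 0.19 became 0.11, 0.06 and 0.08 without it. In Nop10 and Nop58 control 1 was not the lowest control, and the differences were 0.16 and 0.17 with or without it. In Nop14 and Nop16 control 1 was the lowest array by a smaller margin. Their differences of 0.08 and 0.13 became 0.05 and 0.08 without it.

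The contribution of control 1 was then read for the whole set by setting the NPFF mean against each control array in turn. These 3 comparisons share the 3 NPFF arrays and are not independent. The NPFF mean was higher than control 1 in 43 of 55 members, than control 2 in 41 and than control 3 in 37. The median differences were 0.25, 0.09 and 0.02, against 0.07, -0.04 and -0.0044 over all genes. Every NPFF array lay above control 1 in 42 members, against 51.7% of all genes, above control 2 in 28, against 20.0%, and above control 3 in 17, against 22.8%. Control 1 was the lowest of the 6 arrays in 33 of 55 members, against 48.9% of all genes, and the highest in 10, against 24.0%.

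**Figure D3:**
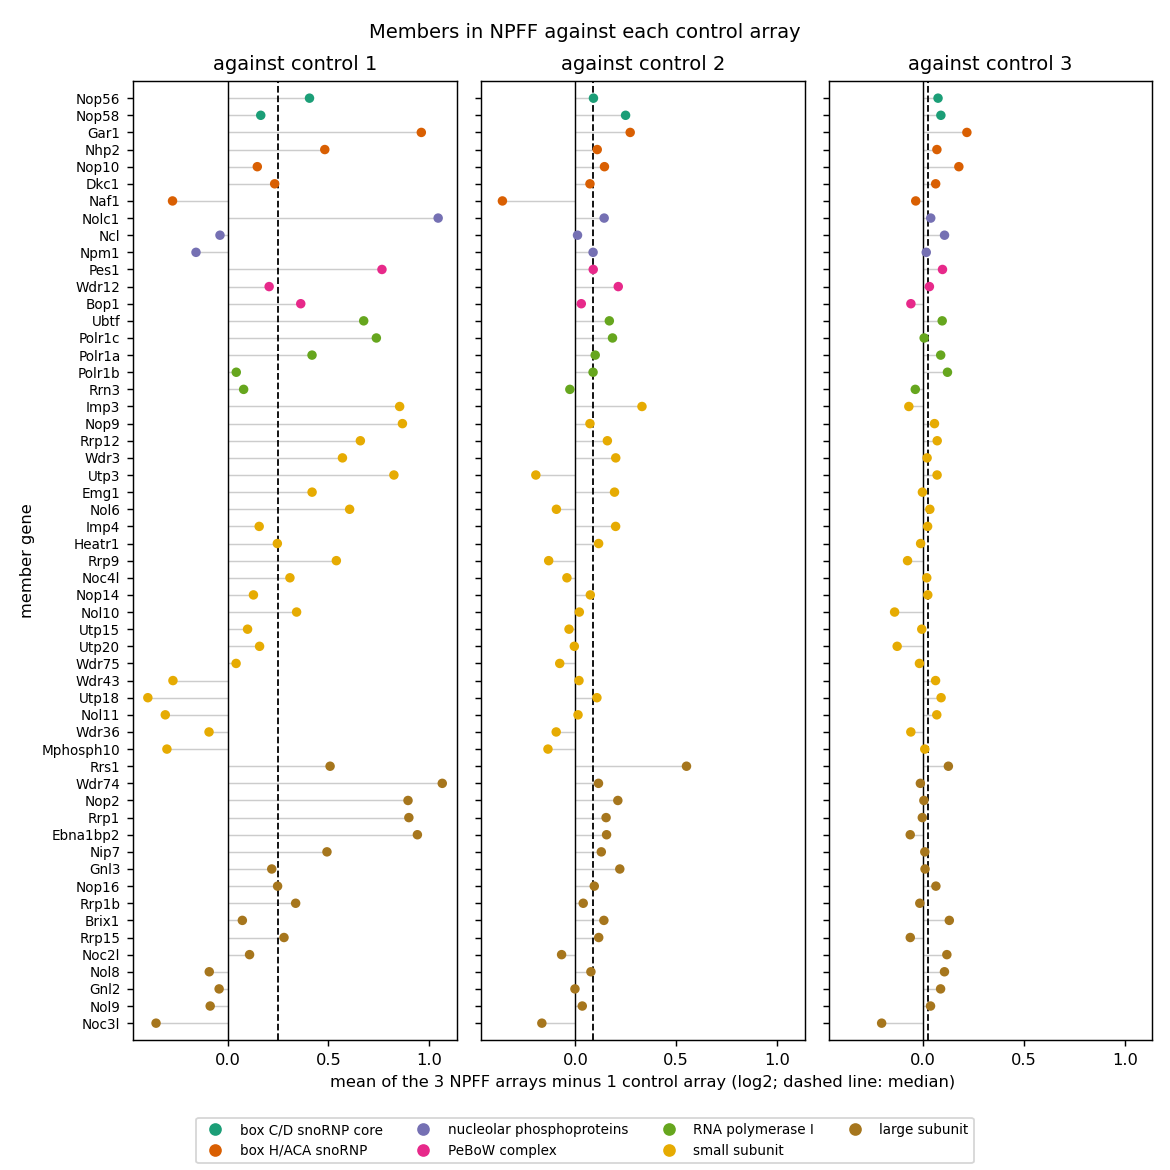
Mean of the 3 NPFF arrays minus control 1, control 2 or control 3 (log2, horizontal axis) for each measured member, coloured by role group, with the median of the set as a dashed line. The medians are 0.25, 0.09 and 0.02, and the points of the large and small subunit factors gather around 0 in the panel for control 3.

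Against control 3 the NPFF mean was higher for both C/D core genes, with a median of 0.08, for 4 of 5 H/ACA genes, with a median of 0.07, and for 4 of 5 RNA polymerase I genes, with a median of 0.09. Against the same array the small subunit factors had a median of 0.02 with 12 of 21 positive, and the large subunit factors had 0.01 with 10 of 16 positive. Gar1 had the highest value against control 3, 0.22, followed by Nop10 with 0.18. The differences between role groups were not tested.

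The NPFF arrays also varied less among themselves than the control arrays did. The median SD of a member was 0.06 in NPFF cells and 0.19 in control cells, and the NPFF SD was the smaller one in 50 of 55 members. Over all genes the median SD was 0.07 in NPFF cells and 0.14 in control cells, so the NPFF group was the narrower one there as well. The NPFF SD was the smaller one in 17832 of all 22180 genes. The member features were bright, at the 55.0th to 99.6th percentile of mean signal with a median at the 86.9th, although signal of different features does not order transcript amounts.

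Where a member had more than 1 feature, these were not always alike. The brighter of the Imp3 features gave 0.37 and the other 0.22, which became 0.13 and -0.03 without control 1. For Rrs1 the values were 0.39 and 0.16, or 0.34 and -0.02 without control 1. Besides its brightest feature, Nop56 had dimmer ones at 0.03 and 0.42, which became 0.28 and -0.10 without control 1. Of the members read only with a second gene, the Tsr1 feature, shared with Srr, had 0.28, or 0.15 without control 1, and the Rrp8 feature, shared with Ilk, had -0.13 either way.

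Other ribosome biogenesis genes, listed by the same roles, gave the frame for these values. No gene of these lists passed the adjusted threshold. Among 31 other small subunit factors 25 were higher in NPFF cells, with a median of 0.09 that was -0.05 without control 1. Rrp7a, a processome component, had the highest of these at 0.31 (SE 0.44), which was -0.23 without control 1, and Ngdn the lowest at -0.30 (SE 0.13), which was -0.16 without it. Among 31 other large subunit factors 22 were higher, with medians of 0.09 and 0.03 without control 1, from Eif6, the factor that keeps free large subunits apart from small ones, at 0.32 (SE 0.19), to Senp3, a SUMO protease of the nucleolus, at -0.11 (SE 0.12). Without control 1 these were 0.09 for Eif6 and 0.02 for Senp3.

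Of 7 other RNA polymerase I genes 4 were higher, with a median of 0.02, and without control 1 the count was 0 of 7 and the median -0.09. Among 10 other snoRNP factors 7 were higher, with a median of 0.09, and without control 1 the count was 4 of 10 and the median -0.02. Their highest difference was that of the assembly ATPase Ruvbl1, 0.49 (SE 0.34), which was 0.08 without control 1. Their lowest was that of Nufip1, a C/D assembly factor, -0.37 (SE 0.15), which was -0.20 without control 1. Cytosolic ribosomal proteins, which this pathway assembles with the rRNAs, were higher in 45 of 59 genes with a median of 0.06, which was -0.0048 without control 1. Against control 3 alone the NPFF mean was higher in 37 of 55 members (67.3%), in 10 of 31 other small subunit factors (32.3%), in 17 of 31 other large subunit factors (54.8%), in 21 of 59 ribosomal proteins (35.6%) and in 10640 of all 22180 genes (48.0%). These shares are a description, since the members were chosen on the same arrays.

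**Figure D4:**
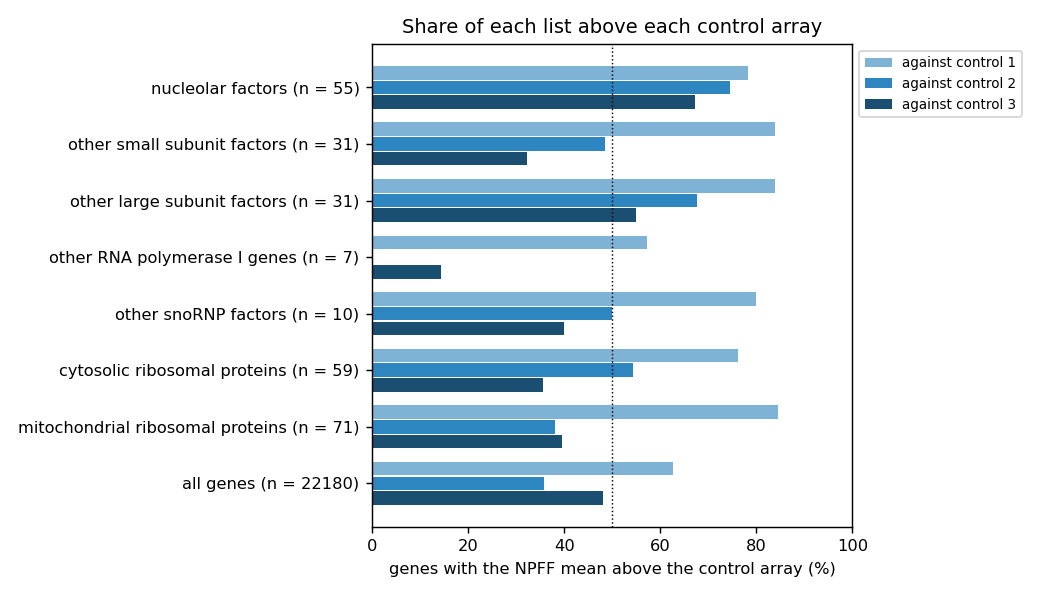
Share of each gene list (percent, horizontal axis from 0) with the NPFF mean above control 1, control 2 or control 3. The nucleolar factors stand at 78.2%, 74.5% and 67.3%, and all genes at 62.6%, 35.8% and 48.0%.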

How the data were processed

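Total RNA of the 6 samples was extracted with TRIZOL and labelled with biotin by the array maker's kit, per the labels' protocols. The deposited table holds values taken to be log2 intensities of transcript clusters, since they run between 4.59 and 14.0. Not given in the sources used here are the scanner software, the background correction, the normalization and the genome build behind them. Of 33794 features, the platform annotation pairs 23521 with exactly 1 gene symbol and 1814 with several, and 8459 are unnamed here. Sorted values of single arrays departed from the mean array by up to 0.17, so quantile normalization over all features was applied. The brightest feature, by mean over the 6 arrays, stood for each gene, and no dim feature was removed.

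Differences and their standard errors (SE) come from limma 3.58.1 in R 4.3.3, with group as the only term in lmFit and eBayes, 4 residual degrees of freedom, two-sided tests and Benjamini-Hochberg adjustment over 22180 genes at 0.05. The procedure was tested on simulated data with known changes. Groups and replicate numbers were taken from the sample titles. The labels do not say that replicates were separate cultures, so p-values measure only the variation among these 6 samples, which may be technical, and with 3 arrays per group their number limits the precision. No scan or hybridisation batch was analysed here.

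The members, role groups and comparison lists were chosen with earlier results of these data known. Values per array are given for the Nop-named members and, in each role group, for the 2 members with the largest difference in either direction and the one nearest 0, besides those without overlap between groups. Of the other ribosome biogenesis lists, only genes with the 2 highest or 2 lowest differences are named. The macrophage markers named are examples and were not chosen by that rule. Promoters are from RefSeq (GRCm38.p6), matched by symbol. Proteins were not analysed here. Alternatives were the values as deposited, median centring, cyclic loess, removal of the dimmest 25% of genes, the mean over a gene's features, a replicate block, each array left out, controls 1 and 2 left out together and, chosen after seeing the data, features shared with a second gene.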

Additional observations from a re-analysis of the deposited data

How the results depend on the processing

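The median difference of the members stayed positive in all settings run, between 0.06 and 0.19 with 1 array left out and at 0.023 with controls 1 and 2 left out together, where limma takes the lone control 3 to vary like the NPFF arrays. The members with a positive difference numbered 37 to 46 of 55 over all settings, and 47 of 58 with features shared with a second gene. However, 14 of 55 changed sign without control 1 and 20 of 55 without controls 1 and 2. Over all 22180 genes, positive differences numbered 11457 with all arrays and 8670 without control 1. Sign changes over all genes are not given here. The count of 10 members higher without overlap, beside 813 of all 22180 genes, was least stable. It was 4 on the values as deposited (570 of all genes) and 2 with arrays centred on their medians (365 of all genes). Without controls 1 and 2 it was 17 (5057 of all genes). With 1 array left out it ran from 10 without NPFF 2 (1224 of all genes) to 25 without control 3 (1822 of all genes). The count over all genes was highest without control 2, at 2628, beside 11 members. Fewer arrays make separation easier by construction, and the cause of the drop under the other scalings was not tested. Over all genes, the count at an unadjusted p under 0.05 was 1130 without controls 1 and 2 and 235 to 2397 with 1 array left out, while the adjusted limma count was 0 throughout. Deviations of same-numbered NPFF and control samples correlated across genes with r of 0.23 and 0.45 for numbers 1 and 2 and -0.33 for number 3, so the numbers were not taken as pairs. With the replicate number as a block, 396 genes were counted at the unadjusted level, 0 after adjustment, and the values of the members were as before. Signal over background could not be assessed on these values.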

Other observations

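Mitochondrial ribosomal proteins, which are made in the cytosol and assembled apart from the nucleolar pathway, were also mostly higher in NPFF cells while all 6 arrays were used. Of 71 such genes 53 were higher in NPFF cells, with a median difference of 0.08, and control 1 was the lowest of the 6 arrays in 54 of them. Without control 1 their median was -0.03, with 28 of 71 higher, against 8670 of 22180 over all genes. Features of the guide RNAs themselves had medians closer to 0 with all 6 arrays, but farther from 0 without control 1. Of 47 box C/D snoRNA features 30 were higher in NPFF cells, with a median of 0.04 that was -0.08 without control 1, and of 26 box H/ACA snoRNA features 14 were higher, with medians of 0.02 and, without control 1, -0.05. A feature that names both Snord57 and its host gene Nop56 stood at 12.29, 12.23 and 12.02 in NPFF cells, against 11.48, 11.95 and 12.27 in control cells. These values were not used to support the results above.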
